A study of Mus musculus with 10 samples.

Results

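The cytochrome P450 genes of the mouse were examined in lung tumours labelled Control or Glut1KO. Members were taken by name, as the rows of the count table whose symbol reads Cyp, a number, letters and a number and nothing more. The pattern matched 91 genes, of which Cyp2f2, the most abundant P450 gene of these libraries, was left out by name and is given as a club cell marker. This left 90 genes of 39017 in the table, all with a position in GENCODE M21. A further 13 symbols that begin with Cyp and a number fell outside the pattern, 8 of them pseudogene symbols. Of the 90 genes, 34 were expressed, in the sense that they passed the count filter of edgeR (a count of about 10 in at least 5 libraries) and were tested. Another 36 had counts below that filter and 20 had 0 counts in all 10 libraries.

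P450 enzymes are haem proteins that insert 1 oxygen atom into their substrate and draw the electrons from a partner reductase. Members of families CYP1 to CYP3 mostly oxidise drugs, pollutants and other foreign compounds, whereas family CYP4 and some CYP2 enzymes hydroxylate or epoxidise fatty acids. Other families make or break down bile acids, steroid hormones, retinoic acid and vitamin D. In the lung, club cells of the bronchioles are the classic site of P450 enzymes.

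Both groups of mice were C57BL/6 and carried K-ras LSL-G12D/WT and p53 Fl/Fl (KP), and the KPG1 mice carried Glut1 Fl/Fl in addition. In all of them Cre came from an adenovirus, Ad5CC10-Cre, given into the trachea, so that recombination depended on infection and on the CC10 promoter of the virus, and other cells of the mouse kept their floxed alleles. Tumours were macrodissected at 20 weeks and 1 day after initiation and depleted of immune cells with beads against CD45, and polyadenylated RNA of the remaining mixed cells was sequenced, 5 libraries titled Control and 5 titled Glut1KO. The genotype label of the controls reads heterozygous fl/wt, while the design text speaks of wild-type Glut1. By the study's methods, controls could be of either genotype. All 5 controls were male. Libraries Glut1KO 1, 2 and 3 were female and 4 and 5 male. The ages of the mice at infection are not in the labels used here. File names carry a second number whose meaning no label gives: Control 1, 2 and 5 share one, Control 3 and 4 another, Glut1KO 4 and 5 a further one, and 0 are shared between the groups. No label says that replicates were separate mice, so p-values measure the spread between these libraries.

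Libraries held 35250991 to 49760462 counts. Slc2a1, the Glut1 gene, stood between 73.2 and 118 CPM (read counts relative to library size, scaled by TMM) in the controls, and at 60.3, 42.5 and 34.6 CPM in Glut1KO 1, 2 and 3, but at 92.4 and 103 CPM in Glut1KO 4 and 5, inside the control range. The group is therefore called the libraries labelled Glut1KO. Alveolar type 2, club and ciliated cell markers were all detected, with 0 of 11, 0 of 11 and 0 of 10 genes without a count. Marker scores (the mean of standardized log2 CPM over a list, in SD units) put Control 2 lowest for alveolar type 2 markers, at -1.89, and for endothelial markers, at -1.72. Leukocyte markers, which the CD45 depletion should remove, summed to 40.2 to 63.1 CPM in controls against 62.4 to 83.6 CPM under the Glut1KO label. Their score did not overlap between the groups (-0.80 to -0.25 and -0.14 to 1.07). Of 10 tested markers 8 were higher, 6 had an unadjusted p under 0.05 and 0 passed the adjusted threshold with limma. Of all genes tested, 7.68% had an unadjusted p under 0.05 by limma. Single genes without overlap in CPM were 1.85% of all, a share that does not apply to a score. All P450 levels below are of mixed tissue, in which fewer cells of a type and less RNA per cell cannot be told apart.

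Which P450 genes the tumours expressed was asked first. Per kilobase of exon, 18 members reached a mean of 1 RPKM over the 10 libraries and 8 reached 10 RPKM. The 3 members with the highest level per kilobase, Cyp2s1 (21.3 RPKM), Cyp1b1 (20.9 RPKM) and Cyp2c68 (18.5 RPKM), held 45.1% of all counts of the 90 members. Cyp20a1 (13.9 RPKM), Cyp39a1 (13.5 RPKM), Cyp3a13 (12.9 RPKM), Cyp2b10 (12.2 RPKM) and Cyp4v3 (10.2 RPKM) followed. The ranges over libraries of neighbours in this order overlapped throughout these 8 genes. The summed level of all members averaged 589 ± 153 CPM in controls (SD, n = 5) against 568 ± 119 CPM (SD, n = 5) under the Glut1KO label, a difference smaller than the spread in either group.

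**Figure D1:**
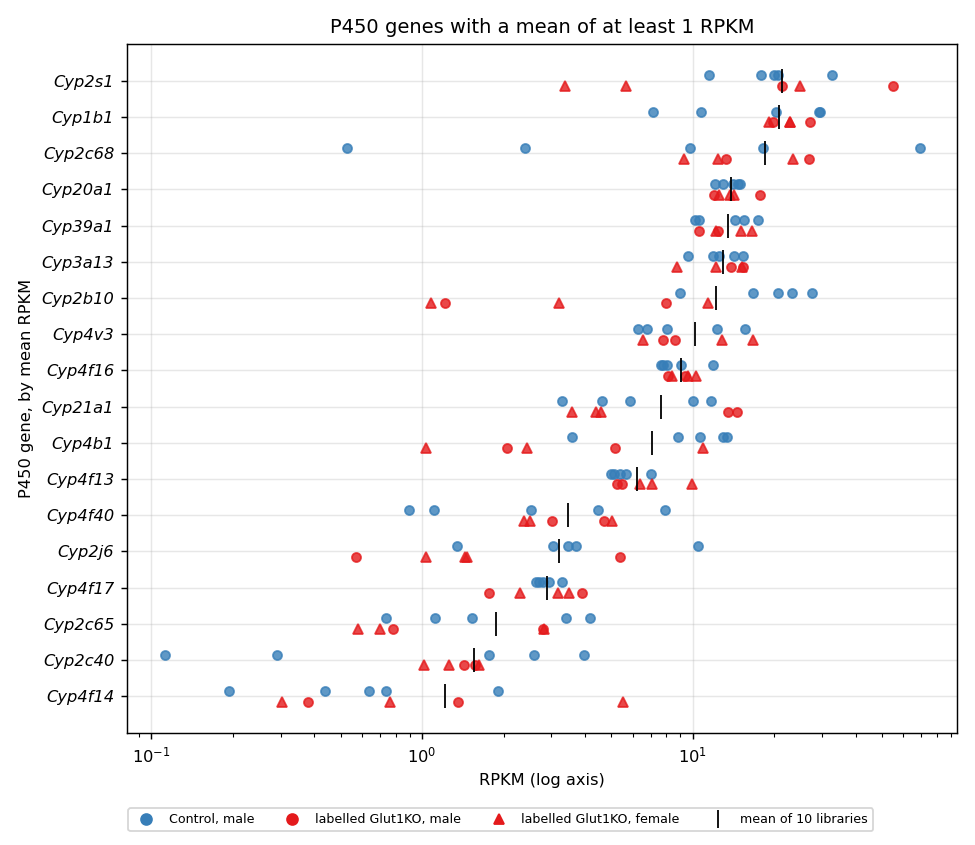
Level of the 18 P450 genes with a mean of at least 1 RPKM. Each point is a library (x axis, RPKM on a log scale), circles are male and triangles female, blue is Control and red the libraries labelled Glut1KO, and the black tick is the mean of the 10 libraries. Cyp20a1, Cyp39a1 and Cyp3a13 lie in narrow bands, whereas Cyp2c68 and Cyp2b10 spread over more than 10-fold.

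Several P450 genes known from the liver had few or no counts, picked here by name and not from a fixed list, while others of the Cyp2c and Cyp2d clusters passed the filter. Cyp3a11, a main drug oxidase of the mouse liver, had 4 counts in the 10 libraries together, Cyp2e1, the ethanol oxidase, 15, and Cyp1a1, the textbook target of the aryl hydrocarbon receptor, 12. Cyp1a2, Cyp4a14, 5 genes of the Cyp2c cluster (Cyp2c37, Cyp2c38, Cyp2c39, Cyp2c50 and Cyp2c54) and 4 Cyp3a genes (Cyp3a16, Cyp3a25, Cyp3a44 and Cyp3a59) were among the 20 members with 0 counts. A count of 0 at this depth does not show that a gene is silent in every cell. The untested member with the most counts was Cyp2a5, with 204 in all, of which 136 came from Control 5 alone.

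By chromosome, and with no test of the difference, expressed members fell as follows. The list covers chromosomes with 8 or more members, and of the others chromosome 9 had 0 of 5 expressed. On chromosome 17, 9 of 10 members were expressed (6 Cyp4f genes, Cyp21a1, Cyp39a1 and Cyp1b1), against 8 of 18 on chromosome 19 (all Cyp2c), 3 of 14 on chromosome 7, 3 of 14 on chromosome 4, 2 of 10 on chromosome 15 and 1 of 8 on chromosome 5, where Cyp3a13 was the only member of family CYP3 to pass the filter.

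The comparison of the groups then asked whether P450 transcripts differed by label. Of the 34 tested members, 21 had a higher and 13 a lower mean log2 level in the libraries labelled Glut1KO, with a median log2 fold change of 0.03, beside 0.00 over all 15922 genes tested. With limma, 0 of the 34 had an adjusted p under 0.05, and 0.0% of all genes did. DESeq2 and edgeR also called 0 members. At an unadjusted p under 0.05 there were 3 members (8.82%), a share near the 7.68% of all genes tested. Values of the groups did not overlap for 0 members, against 1.85% of all genes. The unadjusted count was 1 without Control 1, Glut1KO 2, Glut1KO 3 or Glut1KO 5, and 5 without Control 2. For these fits the share of all genes is not given, so the counts do not set members apart from other genes.

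**Figure D2:**
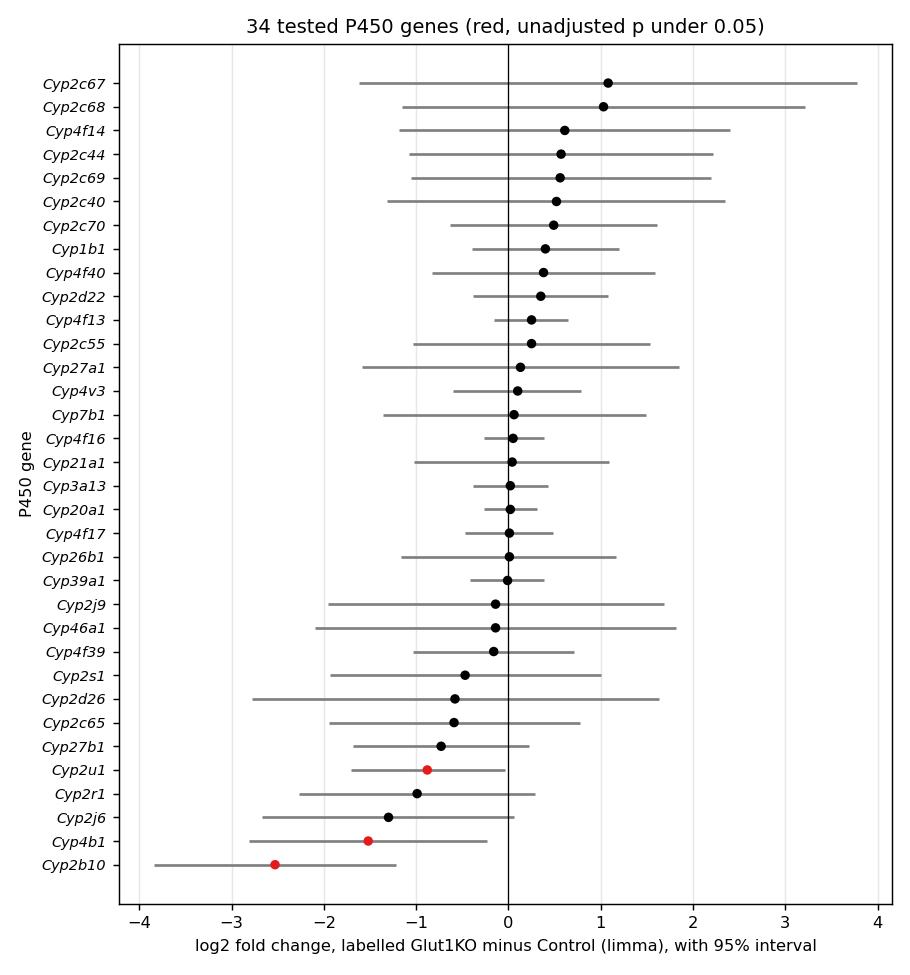
Log2 fold change (labelled Glut1KO minus Control, x axis) of the 34 tested P450 genes, with the 95% interval of limma as a bar. The 3 genes in red, Cyp2b10, Cyp4b1 and Cyp2u1, have an unadjusted p under 0.05, all on the lower side.

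Variation between libraries was examined next. The SD of log2 CPM over the 10 libraries had a median of 1.02 for the 34 members and 0.36 for all genes tested, and it exceeded 1 in 17 of 34 members against 11.4% of all genes. These are descriptions across genes, which are not independent, and the part of low counts in them was not tested. The highest library exceeded the lowest by more than 10-fold in 14 members.

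Family CYP2 without Cyp2r1, which is described with the vitamin D enzymes, had 15 of 46 members tested, 8 higher and 7 lower, and it held the member with the smallest p. Cyp2b10, the phenobarbital-inducible P450 that the receptor CAR drives in liver and that bronchioles also express, had the lowest log2 fold change of the 34. It stood at 58.2, 43.5, 19.0, 49.3 and 35.2 CPM in Control 1 to 5. In Glut1KO 1 to 5 it stood at 24.1, 6.75, 2.27, 16.8 and 2.56 CPM. Thus 4 of the 5 libraries labelled Glut1KO lay below every control, and Glut1KO 1 lay above Control 3. The log2 fold change was -2.53 (SE 0.60, 95% interval -3.84 to -1.22), with an adjusted p of 0.351 by limma, and the 2-sided exact permutation test gave p = 0.0159 before any adjustment.

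The direction of Cyp2b10 was the same in every alternative analysis run, with log2 fold changes from -2.98 to -1.97 and adjusted p from 0.0529 (DESeq2) to 0.626 (limma without Glut1KO 3). Among male libraries the log2 fold change was -2.67, since Glut1KO 4 and 5 were both below the 5 male controls. The female libraries labelled Glut1KO against the controls gave -2.44. Glut1KO 4 and 5 share a name number, and their Slc2a1 was inside the control range, at 92.4 and 103 CPM. With no female controls, sex, the name number and the level of Slc2a1 cannot be told apart in this split. Of its 85-base windows 0.90% occur in another gene, and its neighbours Cyp2b9 and Cyp2b13 had 78 and 49 counts in total. In GRCm38 the gene spans chr7:25897620-25926624 (plus strand).

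Cyp4b1, a family CYP4 enzyme that hydroxylates fatty acids and activates lung toxicants such as ipomeanol, came next. Its level was 30.3, 8.07, 19.9, 24.0 and 29.1 CPM in Control 1 to 5. In Glut1KO 1 to 5 it was 24.6, 5.49, 2.34, 11.7 and 4.66 CPM. Control 2 was the low control and Glut1KO 1 the high library of its group, and 3 libraries labelled Glut1KO lay below all controls. The log2 fold change was -1.52 (SE 0.59), with an unadjusted p of 0.0251 and an adjusted p of 0.593 by limma. The unadjusted p was 0.05 or more in 8 of 22 alternatives, among them edgeR (0.0652), sex as a covariate (0.123) and male libraries (0.0773).

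Cyp2u1, which hydroxylates long-chain fatty acids, was the third member with an unadjusted p under 0.05, but at the bottom of the scale, with 97 counts over all libraries. Its level was 0.430, 0.241, 0.272, 0.356 and 0.217 CPM in Control 1 to 5 and 0.170, 0.166, 0.0898, 0.307 and 0.113 CPM in Glut1KO 1 to 5. Every library labelled Glut1KO except Glut1KO 4 lay below the controls. The log2 fold change was -0.88 (SE 0.38) with an unadjusted p of 0.0407 and an adjusted p of 0.636 by limma. The unadjusted p was 0.05 or more in 12 of 21 alternatives, among them DESeq2 (0.125), sex as a covariate (0.237) and male libraries (0.289).

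Cyp2j6, an epoxygenase of polyunsaturated fatty acids, was added to the named genes after its values were seen. It stood at 37.7, 11.0, 13.4, 12.5 and 4.85 CPM in Control 1 to 5 and at 3.72, 5.21, 5.30, 19.4 and 2.06 CPM in Glut1KO 1 to 5. Control 1 and Glut1KO 4 were far above the rest of their groups. The log2 fold change was -1.30 (SE 0.62) with an unadjusted p of 0.0594 and an adjusted p of 0.667 by limma.

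**Figure D3:**
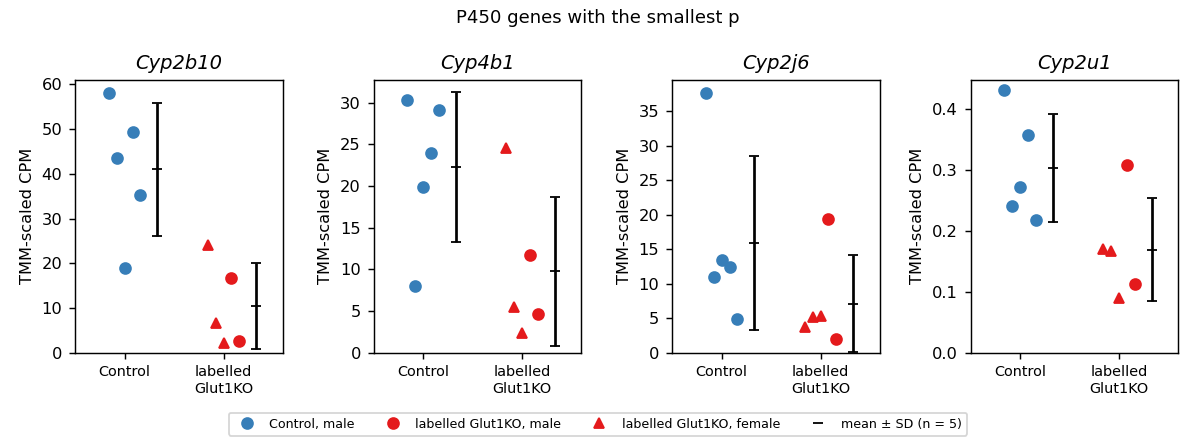
TMM-scaled CPM (y axis) of Cyp2b10, Cyp4b1, Cyp2j6 and Cyp2u1 in Control and in the libraries labelled Glut1KO. Circles are male and triangles female libraries, and the bar is the mean ± SD (n = 5). The groups overlap for each gene, with Glut1KO 1 or Glut1KO 4 as the high library of its group.

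Levels of these genes were also compared with each other over the libraries. Log2 levels of Cyp2b10 and Cyp4b1 correlated with Pearson's r = 0.86 (permutation p = 0.00155, adjusted p = 0.109 over the 561 pairs of tested members) and Spearman's rho = 0.82 (permutation p = 0.00596, adjusted p = 0.311), and r was 0.65 without the 2 libraries farthest from the median of Cyp2b10. For Cyp2b10 and Cyp2u1 Pearson's r was 0.87 (permutation p = 0.00108, adjusted p = 0.107) and Spearman's rho 0.81 (permutation p = 0.00683, adjusted p = 0.311), with 0.63 left for r without the 2 farthest libraries. No pair of members passed the adjustment. These genes were picked for lower values under the same label, so the group difference enters both relations. With the group means removed, an analysis chosen after seeing the data, r was 0.77 for Cyp2b10 and Cyp4b1 (exact permutation within groups, p = 0.0353) and 0.75 for Cyp2b10 and Cyp2u1 (exact permutation p = 0.0386), with no adjustment, since the 8 pairs treated this way were chosen for their values.

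The promoters of Cyp2b10 and Cyp4b1 are shown because these genes had the 2 lowest log2 fold changes. They are RefSeq promoters on GRCm38.p6, from 250 bases before to 50 bases after the start, 5′ to 3′ on the strand of the gene, chr7:25897408-25897707 (plus) and chr4:115647672-115647971 (minus). Capitals mark the motifs searched on both strands, TATAAA (the TATA box core) and GCGTG (the core bound by the aryl hydrocarbon receptor), which read TTTATA and CACGC on the other strand.
Cyp2b10: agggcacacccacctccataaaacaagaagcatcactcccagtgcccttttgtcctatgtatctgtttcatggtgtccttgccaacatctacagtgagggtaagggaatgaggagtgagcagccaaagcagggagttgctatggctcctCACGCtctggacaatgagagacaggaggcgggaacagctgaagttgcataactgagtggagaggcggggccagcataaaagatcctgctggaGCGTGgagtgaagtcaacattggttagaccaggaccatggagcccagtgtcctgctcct
Cyp4b1: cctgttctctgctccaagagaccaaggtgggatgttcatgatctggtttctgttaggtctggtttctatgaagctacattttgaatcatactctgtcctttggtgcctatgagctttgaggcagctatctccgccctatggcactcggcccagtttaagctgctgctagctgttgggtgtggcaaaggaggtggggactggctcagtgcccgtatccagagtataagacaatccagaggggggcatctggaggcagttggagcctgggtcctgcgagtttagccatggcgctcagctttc
The Cyp2b10 window holds GCGTG 2 times and no TATAAA, and the Cyp4b1 window holds neither. Over 32851 promoters of the same length, 32.4% held GCGTG and 13.6% TATAAA. In the 31 promoters of tested members (27 of the 34 genes have an entry), 11 held GCGTG (35.5%) and 8 held TATAAA (25.8%). The 8 include Cyp2c genes of one cluster on chromosome 19, some with similar promoters, so these promoters are not independent. TATAAA was counted anywhere in the window, from position -162 in Cyp2c65 to 40 in Cyp2c40 relative to the start. The difference from all promoters was not tested.

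Because Cyp4b1 and Cyp2b10 are genes of the airway epithelium, marker levels are set beside them. Of 11 club cell markers, 3 had a higher and 8 a lower mean log2 level under the Glut1KO label (median log2 fold change -0.45), and 0 passed with limma at an adjusted or an unadjusted p under 0.05. The summed level of the list ran from 2500 to 12700 CPM in controls against 3440 to 9630 CPM under the Glut1KO label, and no defining marker was at 0. Scgb1a1, which encodes the CC10 protein, had a log2 fold change of -1.04 (SE 0.58, adjusted p = 0.718 by limma), and Cyp2f2 one of -0.45 (SE 0.61, adjusted p = 0.883 by limma). Of 9 tested ciliated cell markers, 0 were higher and 9 lower (median log2 fold change -0.96), and 0 passed. Of 12 endothelial markers 12 were higher and 0 lower (median 0.58), of 11 alveolar type 2 markers 8 were higher and 3 lower (median 0.21) and of 10 alveolar type 1 markers 5 were higher and 5 lower (median 0.03), and in these lists too 0 had an adjusted p under 0.05 by limma.

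The level of Cyp4b1 was set against the club cell marker score over libraries, and no pair of a member and a list passed the adjustment. Pearson's r with the score was 0.82 (permutation p = 0.00416, adjusted p = 0.33 over 238 pairs of a member and a marker list), Spearman's rho was 0.87 (permutation p = 0.00194, adjusted p = 0.231), and r was 0.89 without the 2 libraries farthest from the median score. With the group means removed r was 0.90 (exact permutation within groups, p = 0.00424, not adjusted). Cyp2b10 had r = 0.56 (permutation p = 0.0916, adjusted p = 0.629), rho = 0.48 (permutation p = 0.167, adjusted p = 0.655), and r = 0.81 without the 2 farthest libraries. With the group means removed its r was 0.63 (exact permutation p = 0.0708), and the difference between the genes was not tested. Control 2 had the lowest score (-0.78) and the lowest Cyp4b1 of the controls, with 43.5 CPM of Cyp2b10. With the leukocyte score, Cyp2b10 had r = -0.39 (permutation p = 0.263, adjusted p = 0.705) and rho = -0.60 (permutation p = 0.0747, adjusted p = 0.559), with -0.62 for r without the 2 farthest. That relation turned to r = 0.60 with the group means removed (exact permutation p = 0.19). Cyp4b1 also had r = 0.64 with the ciliated cell score (permutation p = 0.0475, adjusted p = 0.629). Its rho there was 0.70 (permutation p = 0.0303, adjusted p = 0.518). The part of cell content in the differences was not tested, and the libraries may not all be separate mice.

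**Figure D4:**
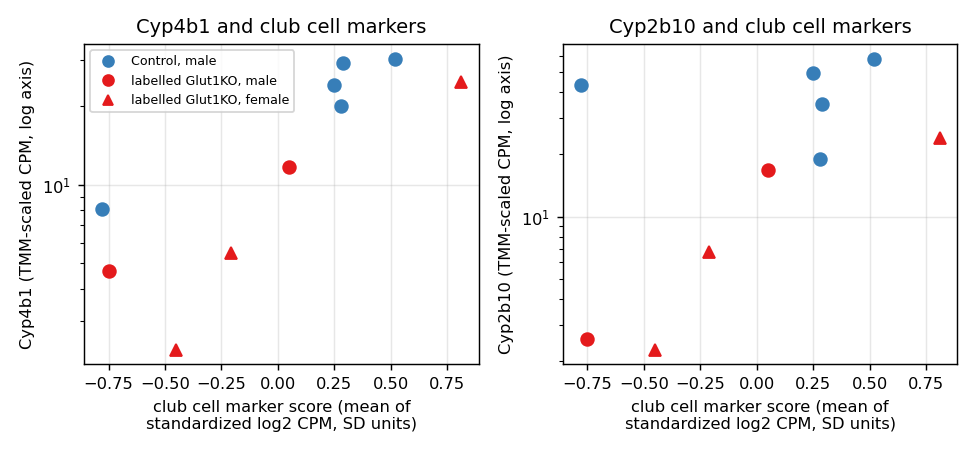
Level of Cyp4b1 (left) and Cyp2b10 (right), as TMM-scaled CPM on a log axis, against the club cell marker score of the same library in SD units. Points are libraries, blue for Control and red for labelled Glut1KO, with triangles for females. For Cyp4b1 r was 0.82 and for Cyp2b10 0.56, where Control 2 lies at 43.5 CPM with a score of -0.78.

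The 8 expressed Cyp2c genes of chromosome 19, epoxygenases and hydroxylases of fatty acids and drugs, included the 2 tested members with the largest SD of log2 CPM over the libraries, Cyp2c67 (2.26) and Cyp2c68 (1.95), while Cyp2c70 (0.823) and Cyp2c55 (0.921) lay below the median of the tested members. Cyp2c68 stood at 0.911, 119, 4.15, 16.9 and 31.3 CPM in Control 1 to 5, a range of 130-fold over the 10 libraries. In Glut1KO 1 to 5 it stood at 16.0, 21.4, 40.5, 46.2 and 22.9 CPM. All 5 libraries labelled Glut1KO thus lay between the extremes of the controls, with Control 1 and 3 below and Control 2 above them. The log2 fold change was 1.03 (SE 0.99, adjusted p = 0.826 by limma), although the mean was 34.4 ± 48.6 CPM in controls (SD, n = 5) against 29.4 ± 13.1 CPM (SD, n = 5) under the Glut1KO label, and edgeR and DESeq2, which fit the mean count, gave -0.23 and -0.22. Without Control 2 the log2 fold change was 1.99.

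Of the close copies of Cyp2c68, Cyp2c40 and Cyp2c67 had a like profile and Cyp2c69 had another. Cyp2c40 stood at 0.228, 8.11, 0.593, 3.61 and 5.28 CPM in Control 1 to 5 and at 2.56, 3.30, 2.07, 3.19 and 2.92 CPM in Glut1KO 1 to 5. Cyp2c67 stood at 0.0253, 3.06, 0.0247, 0.356 and 2.03 CPM in Control 1 to 5, which is 1 count each in Control 1 and 3, and between 0.190 and 1.78 CPM in the libraries labelled Glut1KO. Both were lowest in Control 1 and 3 and highest in Control 2, as was Cyp2c68. Cyp2c69 was lower, from 0.0988 to 1.83 CPM, with its top in Glut1KO 2. These 4 genes share sequence, since 41.05% of the 85-base windows of Cyp2c40, 39.32% of those of Cyp2c69, 30.7% of those of Cyp2c67 and 24.21% of those of Cyp2c68 occur in another gene, so the division of reads among them is uncertain.

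Log2 levels of Cyp2c68 correlated with those of Cyp2c40 with Pearson's r = 0.93 (permutation p = 0.00112, adjusted p = 0.107 over 561 pairs), Spearman's rho = 0.64 (permutation p = 0.0539, adjusted p = 0.506) and r = 0.77 without the 2 farthest libraries. With the group means removed r was 0.94 (exact permutation within groups, p = 0.00632, not adjusted). The part of shared windows in this relation was not tested. Cyp4f40, which lies on chromosome 17 and shares no window with another gene, had a Pearson's r of 0.88 with Cyp2c68 (permutation p = 0.00082, adjusted p = 0.107), a Spearman's rho of 0.87 (permutation p = 0.00215, adjusted p = 0.172) and r = 0.86 without the 2 farthest libraries. With the group means removed r was 0.87 (exact permutation p = 0.0169, not adjusted). It ran from 2.22 CPM in Control 3 to 19.7 CPM in Control 2. Cyp2c65, a less similar member of the chromosome 19 cluster, stood instead at 6.56 CPM in Control 1, its second highest level. Its highest level was also in Control 2, at 8.07 CPM.

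**Figure D5:**
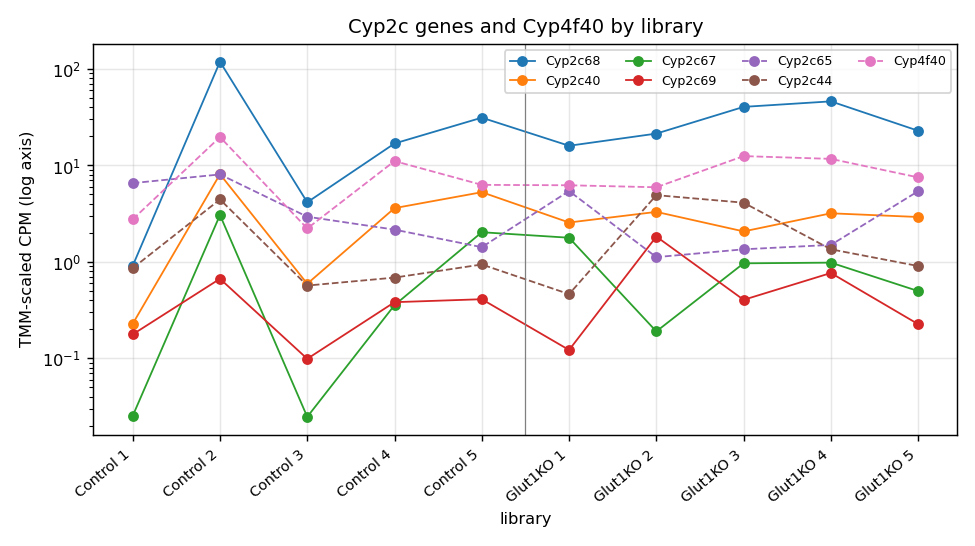
TMM-scaled CPM (y axis, log scale) of 6 Cyp2c genes and Cyp4f40 in each library (x axis), controls left of the grey line. Solid lines join the 4 genes that share sequence (Cyp2c68, Cyp2c40, Cyp2c67 and Cyp2c69) and dashed lines the others, and lines only guide the eye. Cyp2c68, Cyp2c40 and Cyp2c67 are low in Control 1 and 3 and highest in Control 2.

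The promoters of Cyp2c67, Cyp2c68, Cyp2c40 and Cyp2c69 are given because these genes share sequence and the division of their reads is uncertain. They are RefSeq promoters on GRCm38.p6, all on the minus strand of chromosome 19, at chr19:39648993-39649292 (Cyp2c67), chr19:39741052-39741351 (Cyp2c68), chr19:39812765-39813064 (Cyp2c40) and chr19:39886720-39887019 (Cyp2c69), with capitals as above.
Cyp2c67: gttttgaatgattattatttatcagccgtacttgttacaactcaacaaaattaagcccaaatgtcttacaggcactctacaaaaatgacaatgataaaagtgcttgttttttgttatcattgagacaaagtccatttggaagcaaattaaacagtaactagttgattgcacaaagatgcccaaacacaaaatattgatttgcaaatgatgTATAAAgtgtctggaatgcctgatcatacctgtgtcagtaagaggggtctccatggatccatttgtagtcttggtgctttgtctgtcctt
Cyp2c68: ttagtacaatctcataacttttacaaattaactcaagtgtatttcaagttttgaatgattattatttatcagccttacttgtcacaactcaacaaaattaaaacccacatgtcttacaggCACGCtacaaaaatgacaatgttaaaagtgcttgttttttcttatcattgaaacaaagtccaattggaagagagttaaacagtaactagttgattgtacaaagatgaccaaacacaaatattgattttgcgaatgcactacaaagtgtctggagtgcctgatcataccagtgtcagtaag
Cyp2c40: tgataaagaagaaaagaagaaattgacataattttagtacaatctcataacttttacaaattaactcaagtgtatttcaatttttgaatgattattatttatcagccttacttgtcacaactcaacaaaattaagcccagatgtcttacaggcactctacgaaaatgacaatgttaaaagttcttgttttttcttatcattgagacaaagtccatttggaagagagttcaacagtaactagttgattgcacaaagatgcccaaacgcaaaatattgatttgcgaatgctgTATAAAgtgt
Cyp2c69: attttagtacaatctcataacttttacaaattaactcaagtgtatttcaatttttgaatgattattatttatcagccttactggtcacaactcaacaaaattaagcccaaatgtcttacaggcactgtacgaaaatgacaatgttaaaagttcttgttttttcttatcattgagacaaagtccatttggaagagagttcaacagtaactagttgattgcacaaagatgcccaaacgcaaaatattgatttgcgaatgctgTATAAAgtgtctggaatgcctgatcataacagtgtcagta
Cyp2c40 and Cyp2c69 were identical at 98.9% of 270 aligned bases, Cyp2c40 and Cyp2c68 at 94.4% of 266, and Cyp2c67 and Cyp2c68, the least alike, at 91.6% of 251. TATAAA occurs 1 time each in Cyp2c67, Cyp2c40 and Cyp2c69. It begins before the start in Cyp2c67 (position -40) but after it in Cyp2c40 (position 40) and Cyp2c69 (position 10). Its absence from the Cyp2c68 window says only that these letters are not there. Cyp2c68, the most abundant of the 4, holds GCGTG 1 time.

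The 2 members with the highest level per kilobase can both be induced through the aryl hydrocarbon receptor. Cyp2s1, an epithelial and dioxin-inducible P450, stood at 98.6, 102, 56.9, 88.5 and 162 CPM in Control 1 to 5 and at 123, 16.6, 28.0, 106 and 272 CPM in Glut1KO 1 to 5. Glut1KO 2 and 3 lay below all controls and Glut1KO 5 above them. Its log2 fold change was -0.47 (SE 0.67, adjusted p = 0.885 by limma), and it turned to 0.82 with sex as a covariate, to 0.10 with edgeR and to 0.11 with DESeq2. Cyp1b1, the only tested member of family CYP1 and an oxidase of oestrogens and polycyclic hydrocarbons, stood at 119, 171, 41.8, 172 and 62.9 CPM in Control 1 to 5 and at 134, 112, 134, 116 and 158 CPM in Glut1KO 1 to 5. Controls covered the wider range, and the log2 fold change was 0.40 (SE 0.36, adjusted p = 0.81 by limma).

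No gene of the receptor system passed the test. Ahr, the aryl hydrocarbon receptor, averaged 106 ± 16.4 CPM in controls (SD, n = 5) against 109 ± 10.6 CPM (SD, n = 5) under the Glut1KO label, and its repressor Ahrr below 1 CPM in both means. Of the 8 genes of its pathway 6 were higher and 2 lower, 0 with an adjusted p under 0.05 by limma and 0 with an unadjusted one. The receptors of family CYP2 and CYP3 induction were rare, with CAR (Nr1i3) at a mean of 0.379 CPM in controls and PXR (Nr1i2) at 0.787 CPM.

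Cyp3a13, an extrahepatic CYP3 enzyme, was even across libraries, from 25.8 to 45.5 CPM, with a log2 fold change of 0.02 (SE 0.18, 95% interval -0.38 to 0.43, adjusted p = 0.984 by limma). The fatty acid hydroxylases of family CYP4 had 8 of 15 members tested, 6 higher and 2 lower, and apart from Cyp4b1 none had an unadjusted p under 0.05. Cyp4v3, a fatty acid hydroxylase, had a log2 fold change of 0.10 (SE 0.31), Cyp4f16 of 0.05 (SE 0.15) and Cyp4f13 of 0.25 (SE 0.18), with adjusted p of 0.958, 0.949 and 0.773 by limma. With sex as a covariate these turned to -0.18, -0.01 and -0.07, and among male libraries to -0.19, -0.01 and -0.07. Cyp4f14, an enzyme that inactivates leukotriene B4, ranged from 0.469 CPM in Control 3 to 13.4 CPM in Glut1KO 1. The Cyp4a genes, classic targets of PPARα in the liver, had 0 counts for Cyp4a14, Cyp4a31 and Cyp4a32 and 1 count for Cyp4a10, while Ppara itself averaged 3.62 ± 1.05 CPM in controls (SD, n = 5) against 6.13 ± 3.33 CPM (SD, n = 5) under the Glut1KO label (adjusted p = 0.715 by limma).

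Among the enzymes of bile acids and oxysterols, 4 of 6 members were tested, 2 higher and 2 lower, and the smallest adjusted p was 0.981 by limma. Cyp39a1, which hydroxylates an oxysterol on the way to bile acids, was the most abundant, at 47.1, 53.3, 31.2, 43.8 and 32.3 CPM in Control 1 to 5 and at 46.0, 37.2, 50.6, 32.1 and 37.9 CPM in Glut1KO 1 to 5. The groups covered the same range, and the log2 fold change was -0.01 (SE 0.18, 95% interval -0.42 to 0.39, adjusted p = 0.991 by limma). Cyp7b1, an oxysterol hydroxylase, had a log2 fold change of 0.06 (SE 0.65), Cyp27a1, the mitochondrial sterol hydroxylase, of 0.13 (SE 0.78) and Cyp46a1, a cholesterol hydroxylase of neurons, of -0.14 (SE 0.89). Cyp7b1 and Cyp27a1 were named after their values were seen, and their directions, like that of Cyp46a1, turned in some alternatives. Cyp27a1 stood at 4.08 CPM in Control 1 and between 0.169 and 0.856 CPM in the other 9 libraries. The entry enzyme Cyp7a1 had 1 count and Cyp8b1, which sets the type of bile acid, 2 counts in all 10 libraries, too few to compare.

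Of the steroid hormone enzymes only Cyp21a1, the adrenal steroid hydroxylase, passed the filter. It stood at 12.6, 21.4, 7.01, 25.1 and 9.91 CPM in Control 1 to 5 and at 7.69, 9.79, 9.39, 31.2 and 28.8 CPM in Glut1KO 1 to 5. The male libraries Glut1KO 4 and 5 lay above all controls and the 3 female ones inside the control range, so the log2 fold change was 0.04 (SE 0.48, adjusted p = 0.991 by limma) for the group but 1.11 among male libraries and -0.63 for the female libraries against the male controls. There were no female controls, and sex, the name number and the level of Slc2a1 cannot be told apart in this split. Over libraries Cyp21a1 ran against the alveolar type 1 markers, with Pearson's r = -0.90 (permutation p = 0.0017, adjusted p = 0.202 over 238 pairs), Spearman's rho = -0.70 (permutation p = 0.0312, adjusted p = 0.518) and r = -0.86 without the 2 farthest libraries. With the group means removed r was -0.90 (exact permutation within groups, p = 0.00271, not adjusted). The pair is among the 8 chosen for their values, and libraries that share a name number may not be independent. The smallest p of the 238 pairs was that of Cyp46a1, with 118 counts in all, and the alveolar type 2 markers. Pearson's r was 0.82 there (permutation p = 0.00062, adjusted p = 0.148) and Spearman's rho 0.89 (permutation p = 0.0012, adjusted p = 0.231).

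Both tested vitamin D enzymes had a log2 fold change below 0. Cyp2r1, a hydroxylase of the first activation step, stood at 1.24, 0.483, 1.53, 1.45 and 1.35 CPM in Control 1 to 5 and at 0.876, 0.214, 0.202, 1.04 and 1.29 CPM in Glut1KO 1 to 5. Its log2 fold change was -0.99 (SE 0.58, adjusted p = 0.724 by limma), and it was 0.09 among male libraries. Cyp27b1, which makes the active hormone and was named after its values were seen, had one of -0.73 (SE 0.43, adjusted p = 0.728 by limma). Cyp26b1, which breaks down retinoic acid and was the only tested member of its group, had a log2 fold change of 0.01 (SE 0.53, adjusted p = 0.998 by limma), which turned to -0.41 with edgeR, to -0.40 with DESeq2 and was 0.49 without Control 1, which had 4.76 CPM, the other controls having 0.603 to 1.1 CPM. The orphan Cyp20a1, with no established substrate, was the most even of the abundant members, from 27.3 to 40.7 CPM, with a log2 fold change of 0.02 (SE 0.13, 95% interval -0.26 to 0.31, adjusted p = 0.978 by limma).

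Por, the reductase that feeds electrons to microsomal P450 enzymes, averaged 295 ± 49.3 CPM in controls (SD, n = 5) against 293 ± 51.6 CPM (SD, n = 5) under the Glut1KO label. Its log2 fold change was -0.01 (SE 0.16, adjusted p = 0.991 by limma). Of 9 partners of the microsomal enzymes 6 were higher and 3 lower, the median log2 fold change being 0.13, and of 8 genes of haem synthesis 4 were higher and 4 lower, the median being 0.04. In neither list did a gene have an adjusted p under 0.05 by limma. Alas1, the first enzyme of haem synthesis, had a log2 fold change of 0.36 and Fdx1, the ferredoxin of mitochondrial P450 enzymes, of 0.42, with unadjusted p of 0.0428 and 0.0387 and adjusted p of 0.644 and 0.628 by limma.

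Other oxidising and conjugating enzymes of foreign compounds, such as Fmo, Aldh, Adh and Ces genes, were tested as a further list. Of 19 tested genes 17 lay above and 2 below 0, between log2 fold changes of -0.47 and 1.12 around a median of 0.38, and 0 had an adjusted or unadjusted p under 0.05 by limma. Adh1, an alcohol dehydrogenase, had the highest value, with 17.5 ± 13.9 CPM (SD, n = 5) in controls against 32.2 ± 14.9 CPM (SD, n = 5) under the Glut1KO label (adjusted p = 0.677 by limma). Of 18 tested nuclear receptors 12 were higher and 6 lower (median 0.05), and 0 passed the adjusted threshold. Their log2 fold changes ran from -1.48 to 0.82. An unadjusted p under 0.05 by limma was found for 2 of the 18, beside 7.68% of all genes tested. Cyp51, a P450 of cholesterol synthesis outside the name pattern, had a log2 fold change of -0.12 (SE 0.29, adjusted p = 0.94 by limma).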

How the data were processed

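Polyadenylated RNA of the CD45-negative fraction of lung tumours was sequenced in 10 libraries. As deposited, each value is the raw count of reads on an Ensembl gene, without normalization. The submitters' processing notes name bcl2fastq 2.17, cutadapt 1.4.2, HISAT2, featureCounts 1.4.4, edgeR and the build mm10, whereas the study's methods give another Cutadapt version. Libraries were made with a stranded kit, but whether counting used the strand, and the annotation release, are not given in the sources used here, so antisense or overlapping genes could share reads. A second table, with log2 values the authors had normalized, was not used here.

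Genes were filtered with filterByExpr of edgeR 4.0.16 (minimum count 10, minimum total 15), scaled by TMM and fitted with voom and limma 3.58.1 in R 4.3.3, group only, with Benjamini-Hochberg adjustment over 15922 genes and a threshold of 0.05. CPM are TMM-scaled, and RPKM divide them by the union exon length of GENCODE M21 (GRCm38). Exact permutation tests of the group labels were 2-sided over all assignments (smallest possible p 0.00794). That limit does not hold for the permutations within groups. Correlations used log2 CPM and 100000 permutations. Promoters (RefSeq, GRCm38.p6, 70 members with an entry) were aligned globally with free ends.

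The members, lists and tests were chosen with earlier results of these data known. Named genes were the 12 tested members with the highest RPKM, those with an unadjusted p under 0.05 or no overlap, and the most abundant and lowest-p member of each role, 16 in all, and 4 were added after their values were seen. The fit was also run on simulated data, and no outcome of that is given or relied on here. Alternatives were edgeR quasi-likelihood, DESeq2 1.42.0, other scaling and filters, sex, the replicate number, the name number and leaving out each library. Correlations with the group means removed, permuted within groups, were added after seeing the data.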

Additional observations from a re-analysis of the deposited data

Results flagged for a closer look

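In all, 7 values of named genes stood apart from the other 4 libraries of their group by a gap of more than 0.71 of the group's range, among 42 groups of values examined, 2 of which are the summed level of all members in each group. Of the 7, 3 came from the 34 groups that are either these sums or genes fixed by the naming rule, where chance gives about 1 in 20, or about 2. The other 4 belong to genes added after their values were seen and cannot be set against chance. Gaps were taken on CPM and not on the log2 scale of the tests. The share of 1 in 20 assumes normally distributed values, so it is only a rough guide for skewed levels. Control 2 held 3 of the 7. Cyp2c68 stood there at 119 CPM (6389 counts), against 0.911 to 31.3 CPM in the other controls. Cyp2r1 stood at 0.483 CPM (26 counts), against 1.24 to 1.53 CPM. Cyp27b1 stood at 0.984 CPM (53 counts), against 0.28 to 0.42 CPM.

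Control 1 held another 3. Cyp26b1, an enzyme of retinoic acid breakdown, stood at 4.76 CPM (188 counts), against 0.603 to 1.1 CPM in the other controls. Cyp27a1 stood at 4.08 CPM (161 counts), against 0.169 to 0.741 CPM, and Cyp2j6 at 37.7 CPM (1491 counts), against 4.85 to 13.4 CPM. The last was Cyp2j6 in Glut1KO 4, at 19.4 CPM (634 counts), against 2.06 to 5.3 CPM in the other libraries labelled Glut1KO. The causes were not tested.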

How the results depend on the processing

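In all 22 settings 0 members had an adjusted p under 0.05, and the lowest of any member was 0.0529 (Cyp2b10, DESeq2). The count at an unadjusted p under 0.05 was 3, became 5 for the female libraries labelled Glut1KO against Control, and ran from 1 to 5 when each library was left out. Only the main count has the share of all genes beside it, so these moves are not set against a background. The median log2 fold change ran from -0.04 to 0.10. Expressed members numbered 34 by the count filter, 19 by a mean of at least 1 RPKM in a group and 26 by 1 CPM.

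Of 434 values of single genes under an alternative, 75 changed sign. edgeR gave 0.10 for Cyp2s1, -0.23 for Cyp2c68, -0.41 for Cyp26b1 and -0.95 for Cyp27a1, and DESeq2 0.11, -0.22, -0.40 and -0.95. Sex as a covariate gave 0.82 for Cyp2s1, -0.18 for Cyp4v3, -0.01 for Cyp4f16, -0.07 for Cyp4f13, 0.08 for Cyp2r1, -0.57 for Cyp7b1 and -0.47 for Cyp27a1, and male libraries alone 0.82, -0.19, -0.01, -0.07, 0.09, -0.59 and -0.47. Female libraries labelled Glut1KO gave -0.02 for Cyp20a1, 0.12 for Cyp39a1, -0.09 for Cyp3a13, -0.63 for Cyp21a1, 0.83 for Cyp46a1 and -0.28 for Cyp26b1. Library totals gave -0.01 for Cyp26b1. Sums over the name number gave 0.05 for Cyp39a1, -0.20 for Cyp21a1, -0.26 for Cyp26b1 and -0.53 for Cyp27a1. Leaving out single libraries gave ranges from -0.06 to 0.07 for Cyp20a1, -0.23 to 0.26 for Cyp21a1, -0.22 to 0.49 for Cyp26b1, -0.23 to 0.87 for Cyp27a1, -0.97 to 0.05 for Cyp2s1, -0.11 to 0.09 for Cyp39a1, -0.07 to 0.17 for Cyp3a13, -0.72 to 0.36 for Cyp46a1, -0.10 to 0.28 for Cyp4v3 and -0.29 to 0.58 for Cyp7b1. The cause was not tested.

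Replicate numbers did not pair the samples, since deviations of same-numbered libraries correlated between -0.132 and 0.197. With the replicate block 2 members had an unadjusted p under 0.05 and 0 an adjusted one, and Cyp26b1 gave -0.14 and Cyp27a1 -0.25 on the log2 scale. Low counts limit what can be seen of the rare members, such as Cyp2u1 with 97 counts in all.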
